A study of Danio rerio with 12 samples.

Results

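The genes described here encode proteins of the spliceosome and their close relatives: 59 genes whose names in the promoter table begin with snrp, snrnp, sf3a, sf3b, u2af, u2surp, sart1 or sart3, or with lsm, cwc or prpf and a number. The members were picked by name alone, with 1 window per gene, the one with the highest mean over all libraries, and no gene had more than 1 window. They make up 59 of 15431 tested windows, and all 59 passed the filter on low signal. Open chromatin was profiled with ATAC-seq, an assay that uses a transposase to tag accessible DNA, on cells of entire zebrafish embryos freed of yolk and aged 32 hours after fertilization. supt16h-/- embryos, labelled Supt16h Mutant, were compared with embryos labelled Wildtype Sibling. Supt16h is a subunit of FACT, a histone chaperone that loosens and rebuilds nucleosomes for polymerases, and the labels name no allele, no other alteration and no share of heterozygotes among the siblings. Each group held 3 biological replicates with 2 technical repeats each, 6 libraries per group, and 50000 cells were taken for each library. The series text gives a number of embryos without saying how they were divided among the libraries. Because the material was the whole embryo, a smaller share of cells of a type and less signal per cell cannot be told apart.

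The spliceosome removes introns from messenger RNA precursors. Its building blocks are small nuclear ribonucleoproteins (snRNPs), each an RNA with a ring of Sm or LSm proteins and its own specific proteins. The U1 particle marks the start of an intron, U2 binds the branch site near its end, and the U4/U6-U5 tri-snRNP then joins and is rebuilt into the active enzyme. Nearly every cell of an embryo needs this machinery. Not every gene that the name rule took is spliceosomal: Lsm1 acts in messenger RNA decay in the cytoplasm, the Lsm14 proteins act in translational repression and P bodies, and Lsm12 is no core subunit.

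Values are the authors' normalized log2 signal, taken over 4000 bp around an annotated start site (GRCz10), averaged over the technical repeats. A level or a difference is on that log2 scale, and a fold is 2 to the power of the difference. Each difference is the mutant mean less the wildtype mean, with its standard error (SE) from limma, a linear model with moderated variances, fitted over all 15431 windows. A window is called when its Benjamini-Hochberg adjusted p is under 0.05. A window says how open a promoter and its surroundings were, not how much RNA was made. Directions rest on the names of the library columns: the log2 fold change in the authors' deposited table has the opposite sign at all 59 members. It also has the opposite sign at all 2977 tested windows where the authors' adjusted p was under 0.05. Under its sign every direction given here would be reversed. Its size was also larger at every called member, such as -0.88 at snrpb and 0.36 at lsm6, against 0.61 and -0.26 from the library columns. Folds given here rest on the library columns alone.

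In the mutants the members lay mostly above the wildtype siblings, by small amounts. Of the 59 windows, 12 rose, 1 fell and 46 did not pass, where 8.02% of all tested windows were called higher and 3.58% lower. This comparison of 3 against 3 left the replicate numbers out. With the replicate number as a block, 21 were called higher and 1 lower, where 14.0% and 9.47% of all windows were. The difference was positive at 50 members, and the median over the members was 0.14, with quartiles at 0.06 and 0.24, against a median of -0.02 over all tested windows. Under the alternatives run, the members' median stayed between 0.12 and 0.17 and 41 to 53 members were positive, with 41 when the replicate slope was a covariate. All 3 mutant replicates lay above all 3 wildtype replicates at 26 members, and at 15.5% of all windows. They lay below at 1 member, and at 14.0% of all windows.

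**Figure D1:**
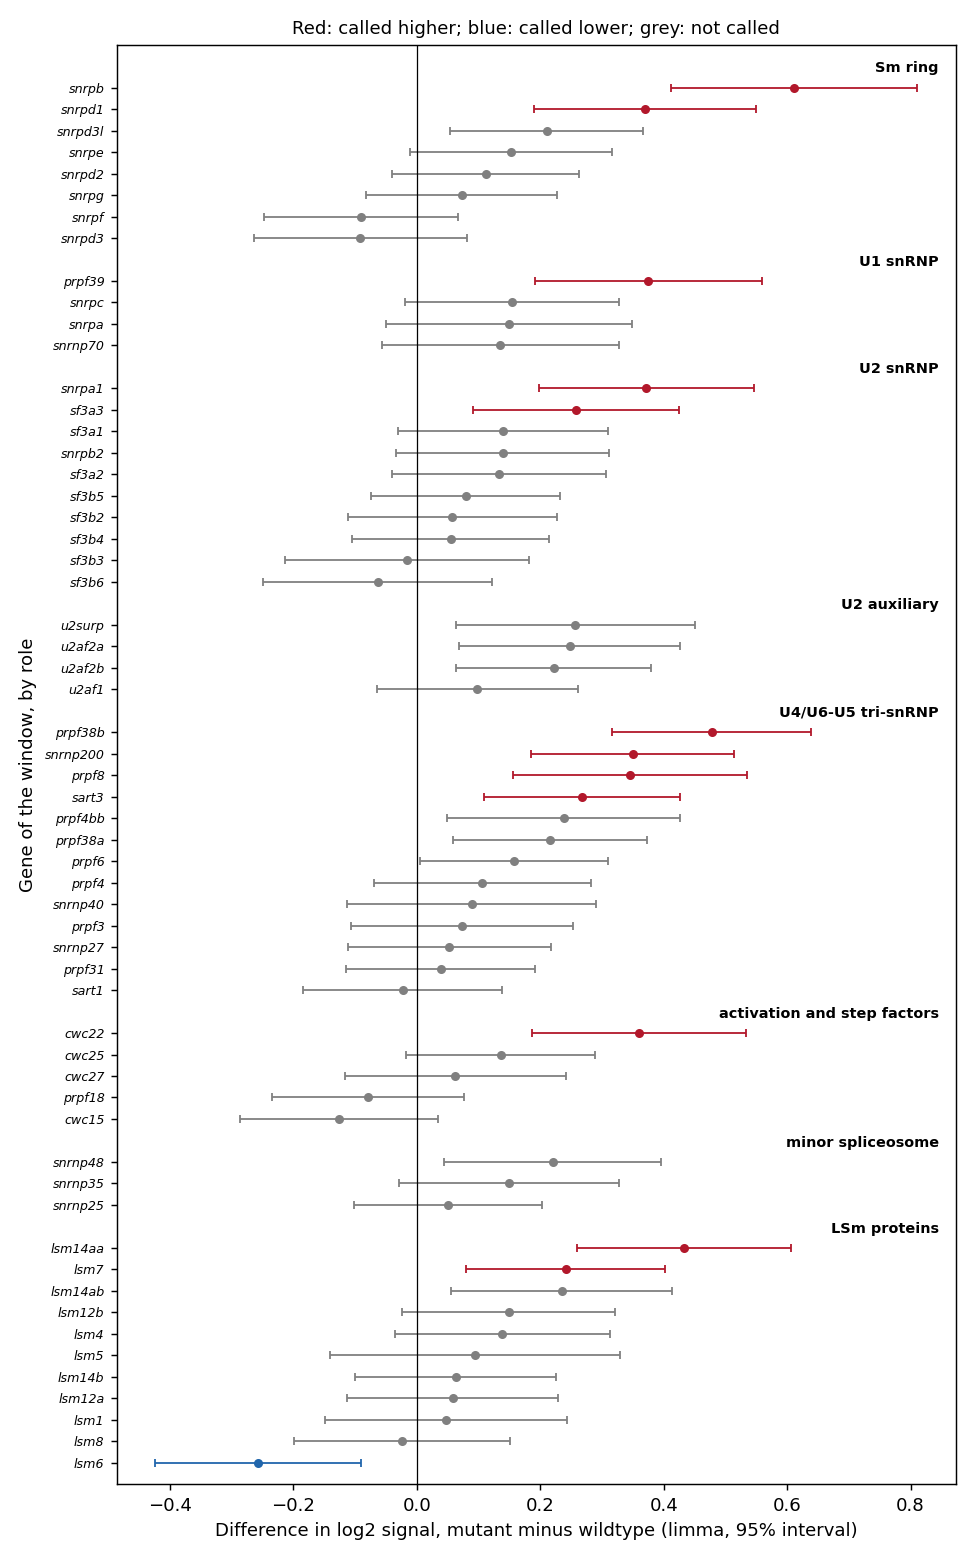
Difference in log2 signal, mutant minus wildtype (horizontal axis), for the members' windows, all but 1 of the 59, sorted by role from top to bottom; points are limma estimates and bars 95% intervals. The 12 windows called higher (red) come from 6 of the 8 roles, the U2 auxiliary and minor spliceosome roles hold none, and lsm6 (blue) is the 1 window called lower.

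The Sm ring is the protein collar shared by the snRNPs of the splicing machinery. Its 8 genes had a median difference of 0.13, and 2 of them rose, snrpb and snrpd1, while the other 6 stayed short of the threshold. Of all tested windows 8.02% were called higher. The role's median signal was 8.06, in a range where 12.4% were. snrpb, which encodes SmB, had the largest difference of all members. Its window (chromosome 6, 57486547 to 57490547) had a log2 signal of 8.40, 8.63 and 8.27 in mutant replicates 1, 2 and 3, against 7.84, 7.93 and 7.69 in wildtype replicates 1, 2 and 3. The groups did not overlap, and in single libraries the lowest mutant value was 8.24 and the highest wildtype value 8.06. snrpb rose 1.53-fold (0.61 ± 0.09, SE, n = 3 each, limma adjusted p = 0.00039). With the replicate slope, that of a replicate's values on the mean of all replicates, as a covariate, snrpb was not called (0.62, adjusted p = 0.0652). Every mutant replicate had a higher slope than every wildtype replicate, so this covariate overlaps with genotype.

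snrpd1, for SmD1 (chromosome 19, 1920955 to 1924955), had values of 8.90, 8.83 and 8.68 in the mutants, against 8.55, 8.32 and 8.44 in the wildtype siblings. It rose 1.29-fold (0.37 ± 0.09, SE, limma adjusted p = 0.0082). The window of clptm1l, read in the opposite direction, overlaps it with its centre 1628 bp away, and was also called higher (0.30, limma adjusted p = 0.0335). Without wildtype replicate 2 the snrpd1 call was lost (adjusted p = 0.0607).

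The other Sm genes did not pass in the comparison of 3 against 3. snrpd3l, a second gene of the SmD3 kind, stood at 8.08 ± 0.07 in the mutants and 7.87 ± 0.01 in the wildtype siblings (SD, n = 3 each), a difference of 0.21 that was called with the replicate number as a block (limma adjusted p = 0.0226). snrpe, snrpd2 and snrpg, for SmE, SmD2 and SmG, differed by 0.15, 0.11 and 0.07. snrpd3 and snrpf, for SmD3 and SmF, differed by -0.09 each, with 95% intervals of -0.26 to 0.08 and -0.25 to 0.07. Differences within this 1 ring thus ran from -0.09 to 0.61.

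**Figure D2:**
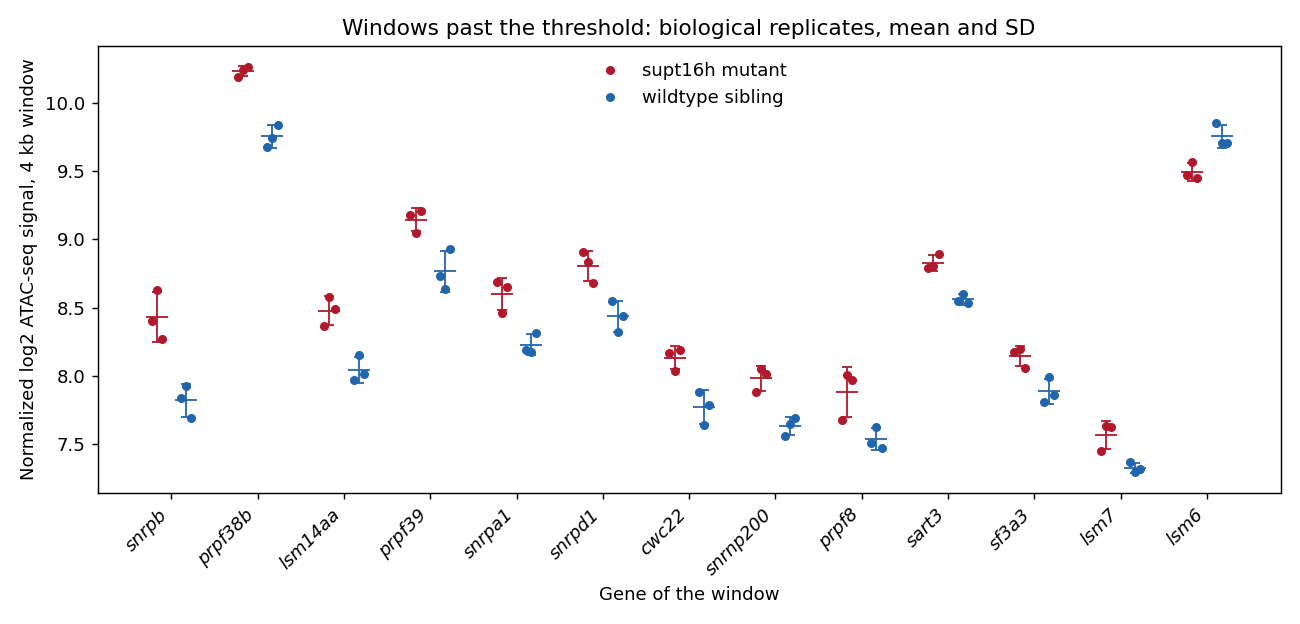
Normalized log2 ATAC-seq signal (vertical axis, not starting at 0) of the 13 windows past the threshold, ordered by difference; points are biological replicates, horizontal marks their means and bars 1 SD, with mutants in red left of wildtype siblings in blue. Mutant points lie above all wildtype points in 12 windows, with the largest difference of means at snrpb, and below them at lsm6.

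U1 snRNP proteins contact the start of the intron. Of the 5 measured, 1 rose, where 8.02% of all tested windows were called higher. The role's median signal was 8.95, in a range where 12.4% were, and its median difference was 0.15. prpf39, a U1-associated factor that takes part in choosing splice sites (chromosome 20, 54476481 to 54480481), had values of 9.18, 9.05 and 9.20 in the mutants, against 8.73, 8.64 and 8.93 in the wildtype siblings. It rose 1.30-fold (0.38 ± 0.09, SE, limma adjusted p = 0.0085), but leaving out wildtype replicate 2 took its adjusted p to 0.0651 and quantile normalization to 0.0541, both short of a call. The core U1 proteins snrpc, snrpa and snrnp70 (U1-C, U1-A and U1-70K) differed by 0.15, 0.15 and 0.14. The smallest of these, snrnp70, had a 95% interval of -0.06 to 0.33.

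U2 snRNP proteins, with the SF3a and SF3b complexes, grip the branch site. Of the 10 measured, 2 rose, where 8.02% of all tested windows were called higher, and the role's median difference was 0.11. snrpa1, for U2-A′ (chromosome 7, 9043463 to 9047463), had values of 8.68, 8.46 and 8.65 in the mutants, against 8.19, 8.18 and 8.32 in the wildtype siblings. It rose 1.29-fold (0.37 ± 0.08, SE, limma adjusted p = 0.0062), and it was called in every fit that left out 1 replicate, as were snrpb, prpf38b, lsm14aa and snrnp200. With the replicate slope as a covariate snrpa1 was not called (adjusted p = 0.0986).

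sf3a3, for a subunit of SF3a, rose by 0.26 ± 0.08 (SE, limma adjusted p = 0.0421). Its replicates lay at 8.17, 8.20 and 8.06 in the mutants, against 7.81, 7.99 and 7.86 in the wildtype siblings. It missed the threshold when mutant replicate 1 (adjusted p = 0.0722), mutant replicate 2 (0.116), wildtype replicate 1 (0.175) or wildtype replicate 3 (0.132) was left out, and after quantile normalization (0.0517). sf3a1 and sf3a2, the other SF3a subunits, differed by 0.14 and 0.13 without passing, and snrpb2, for U2-B″, by 0.14. None of the 5 measured SF3b genes passed, and their differences were the smallest of this role: sf3b5 0.08, sf3b2 0.06, sf3b4 0.05, sf3b3 -0.02 and sf3b6 -0.06. sf3b6, whose product touches the branch adenosine, had a 95% interval of -0.25 to 0.12. The window of sf3b2 overlaps that of zgc:55262, which was called lower (-0.40, limma adjusted p = 0.0029) with its centre 2320 bp away.

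The 4 U2 auxiliary genes all lay higher in the mutants on average, as 45.3% of all tested windows did. None passed, where 8.02% of all tested windows were called higher. u2af2a and u2af2b encode the large subunit of U2AF, which reads the pyrimidine tract, u2af1 the small subunit, which reads the AG at the intron's end, and u2surp a U2-associated SR-like protein. The differences were 0.26 for u2surp, 0.25 for u2af2a, 0.22 for u2af2b and 0.10 for u2af1. u2af2a stood at 8.67, 8.87 and 8.83 in the mutants, against 8.41, 8.63 and 8.58 in the wildtype siblings. u2surp spread more in the mutants, at 8.18, 8.58 and 8.42, against 8.14, 8.13 and 8.14 in the wildtype siblings. At all 3 of u2af2a, u2af2b and u2surp every mutant replicate lay above every wildtype replicate, as at 15.5% of all windows. Single libraries overlapped at u2af2a and u2surp and not at u2af2b. The windows of u2af2a and u2surp overlap those of isoc2 (-0.08) and mir124-1 (-0.18), neither of them called. In limma the adjusted p of u2af2a, u2af2b and u2surp lay at 0.0695, 0.0646 and 0.0815. With the replicate number as a block these 3 were called (0.0062, 0.017 and 0.0189). Without mutant replicate 1, u2surp and u2af2a were called as well (0.0069 and 0.0228).

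The U4/U6-U5 tri-snRNP and its partners, the role with the most genes, also held the most calls. Of its 13 genes 4 rose, where 8.02% of all tested windows were called higher, and the role's median difference was 0.16. Of 16 further genes outside the name rule that were listed under the tri-snRNP, 3 rose, with a median of 0.06. Among these 3 is tfip11, which helps take the spliceosome apart. prpf38b, related to the Prp38 factor that yeast needs to activate the spliceosome, was the most open promoter of all members and lay above 97.1% of all windows. Its window (chromosome 2, 45808910 to 45812910) had values of 10.19, 10.24 and 10.26 in the mutants, against 9.68, 9.74 and 9.84 in the wildtype siblings. It rose 1.39-fold (0.48 ± 0.08, SE, limma adjusted p = 0.00048). The difference was 0.28 both after cyclic loess and after quantile normalization, still called (adjusted p = 0.0076 and 0.0081).

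snrnp200 and prpf8 encode the heart of the U5 particle, the helicase that unwinds U4 from U6 and the large scaffold around the catalytic RNA. snrnp200 (chromosome 8, 31042416 to 31046416) stood at 7.88, 8.05 and 8.02 in the mutants, against 7.56, 7.65 and 7.69 in the wildtype siblings. It rose 1.27-fold (0.35 ± 0.08, SE, limma adjusted p = 0.0063). prpf8 (chromosome 15, 28327756 to 28331756) had values of 7.68, 8.01 and 7.97 in the mutants, against 7.51, 7.63 and 7.47 in the wildtype siblings. Here mutant replicate 1 came close to wildtype replicate 2. prpf8 rose by 0.35 ± 0.09 (SE, limma adjusted p = 0.0177), and missed the threshold when mutant replicate 2 (adjusted p = 0.0607), mutant replicate 3 (0.0789), wildtype replicate 1 (0.0836) or wildtype replicate 3 (0.0795) was left out. With the replicate slope as a covariate, snrnp200 stood at 0.20 (adjusted p = 0.367) and prpf8 at 0.13 (0.639), neither called.

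sart3, which helps U4 and U6 pair again after use, rose by 0.27 ± 0.08 (SE, limma adjusted p = 0.027). Its replicates lay at 8.79, 8.80 and 8.89 in the mutants, against 8.55, 8.60 and 8.53 in the wildtype siblings. It missed the threshold when mutant replicate 2 (adjusted p = 0.0515), mutant replicate 3 (0.112) or wildtype replicate 1 (0.0881), 2 (0.0664) or 3 (0.104) was left out, and after cyclic loess (0.0639) or quantile (0.0671) normalization. The kinase gene prpf4bb differed by 0.24 and prpf38a, of the complex before activation, by 0.22, without passing, and both were called with the replicate block (adjusted p = 0.015 and 0.0245). prpf4bb was also called without mutant replicate 3 (0.0469). The window of prpf38a lies almost on that of orc1, an origin recognition gene read the other way with its centre 44 bp away, so both cover nearly the same stretch (0.22 and 0.21). prpf6, prpf4, snrnp40, prpf3, snrnp27 and prpf31, all of the tri-snRNP or U5, lay between 0.04 and 0.16. sart1, which ties the tri-snRNP to the rest, had the smallest difference of the role, -0.02 (95% interval -0.18 to 0.14). prpf31, snrnp27 and sf3b5 had the lowest signal of the members, at 6.60 ± 0.05, 6.90 ± 0.06 and 6.77 ± 0.05 in the mutants and 6.56 ± 0.06, 6.85 ± 0.11 and 6.69 ± 0.06 in the wildtype siblings (SD, n = 3 each).

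Among 5 factors of activation and of the catalytic steps, 1 rose, where 8.02% of all tested windows were called higher. Their median difference was 0.06. cwc22, which loads the exon junction complex onto spliced RNA (chromosome 9, 43840474 to 43844474), had values of 8.17, 8.04 and 8.19 in the mutants, against 7.88, 7.64 and 7.79 in the wildtype siblings. It rose 1.28-fold (0.36 ± 0.08, SE, limma adjusted p = 0.0078). Leaving out wildtype replicate 2 ended the call (adjusted p = 0.0607). cwc25, a factor of the first step, and cwc27, a cyclophilin of the active complex, differed by 0.14 and 0.06. prpf18, of the second step, and cwc15, of the Prp19-related group, differed by -0.08 and -0.13. The interval of cwc15 ran from -0.29 to 0.03. None of the 3 genes of the minor spliceosome, which removes the rare U12-type introns, passed: snrnp48, snrnp35 and snrnp25 differed by 0.22, 0.15 and 0.05. snrnp48 was called without mutant replicate 1 (adjusted p = 0.0393) and with the replicate block (0.0216).

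Among the 11 genes for LSm proteins 2 rose and 1 fell, around a median of 0.09. Of all tested windows 8.02% were called higher and 3.58% lower. lsm14aa, for a P body protein and not for a spliceosome subunit (chromosome 25, 35382211 to 35386211), had values of 8.37, 8.57 and 8.49 in the mutants, against 7.97, 8.15 and 8.01 in the wildtype siblings. It rose 1.35-fold (0.43 ± 0.08, SE, limma adjusted p = 0.0020). With the replicate slope as a covariate it stood at 0.28 and was not called (adjusted p = 0.217).

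lsm6, a subunit both of the nuclear ring on U6 RNA and of the decay ring in the cytoplasm, was the member that fell (chromosome 1, 35460702 to 35464702). Its replicates lay at 9.47, 9.57 and 9.45 in the mutants, against 9.85, 9.70 and 9.70 in the wildtype siblings. The fall was -0.26 ± 0.08 (SE, limma adjusted p = 0.0421). The replicate means did not overlap. Single libraries did, as they also did at snrpa1, cwc22, prpf8, sart3, sf3a3 and lsm7 among the higher calls and at none of the rest. At lsm6 the highest mutant library lay at 9.64 and the lowest wildtype library at 9.55. It missed the threshold when mutant replicate 1 (adjusted p = 0.0529), mutant replicate 3 (0.143) or wildtype replicate 1 (0.174), 2 (0.0891) or 3 (0.0832) was left out, with library medians set equal (0.0658) and with the replicate slope as a covariate (0.349, at -0.20). After cyclic loess and quantile normalization the difference was -0.42 in both cases (adjusted p = 0.0036 and 0.0032).

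lsm7, which sits in the same rings, rose by 0.24 ± 0.08 (SE, limma adjusted p = 0.0494). Its values were 7.45, 7.64 and 7.62 in the mutants, against 7.37, 7.30 and 7.32 in the wildtype siblings. The window is shared with sass6, a centriole gene read the other way with its centre 270 bp away, which rose by 0.25 (limma adjusted p = 0.0381). lsm7 missed the threshold when mutant replicate 2 (adjusted p = 0.139), mutant replicate 3 (0.164) or wildtype replicate 1 (0.100), 2 (0.155) or 3 (0.132) was left out, without the level filter (0.0510) and without limma's trend and robust options (0.0584). lsm8, found in the nuclear ring and not in the decay ring, and lsm1, found in the decay ring and not in the nuclear ring, differed by -0.02 and 0.05. lsm14ab, lsm12b, lsm4, lsm5 and lsm14b differed by 0.24, 0.15, 0.14, 0.09 and 0.06, and of these lsm14ab was called with the replicate block (adjusted p = 0.0111). lsm12a, among the 3 most open members with prpf38b and lsm6, stood at 9.90 ± 0.13 in the mutants and 9.84 ± 0.03 in the wildtype siblings (SD, n = 3 each). Its difference of 0.06 turned to -0.13 and -0.12 after quantile and cyclic loess normalization.

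Some members carry names that differ in a final a or b. Each pair was compared by the difference between its 2 windows in the mutants and in the wildtype siblings. lsm14aa minus lsm14ab was -0.69 in the mutants and -0.89 in the wildtype siblings, a change of 0.20 (95% interval -0.01 to 0.41, limma adjusted p = 0.233 over 1575 such name pairs in the table). For u2af2a and u2af2b the change was 0.03 (-0.17 to 0.22, adjusted p = 0.896), and for lsm12a and lsm12b -0.09 (-0.29 to 0.11, adjusted p = 0.61). prpf38a and prpf38b, which are distinct genes in humans too, gave -0.26 (-0.47 to -0.06, adjusted p = 0.104). snrpa and snrpb, which share only the form of their names, gave -0.46 (-0.68 to -0.25, adjusted p = 0.0129), so the difference at snrpb exceeded that at snrpa. Of the 1575 name pairs 148 were called.

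The share of windows called depends on how open they are, so the members were also read by signal. Their median log2 signal was 8.13 in the mutants and 7.89 in the wildtype siblings, and their signal spanned 6.58 to 9.99. Between 7 and 8, 4 of 25 members rose (16.0%), against 3.93% of all windows of that range, and the median difference was 0.14, against -0.03. Between 8 and 9, 7 of 22 rose (31.8%), against 12.4%, with medians of 0.15 and 0.04. Between 9 and 10, 1 of 8 rose (12.5%), against 24.0%, with medians of 0.15 and 0.11. In that range 1 member, lsm6, was called lower, as were 1.29% of all windows. None of the 4 members between 6 and 7 was called, where 2.23% of all windows were called higher.

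**Figure D3:**
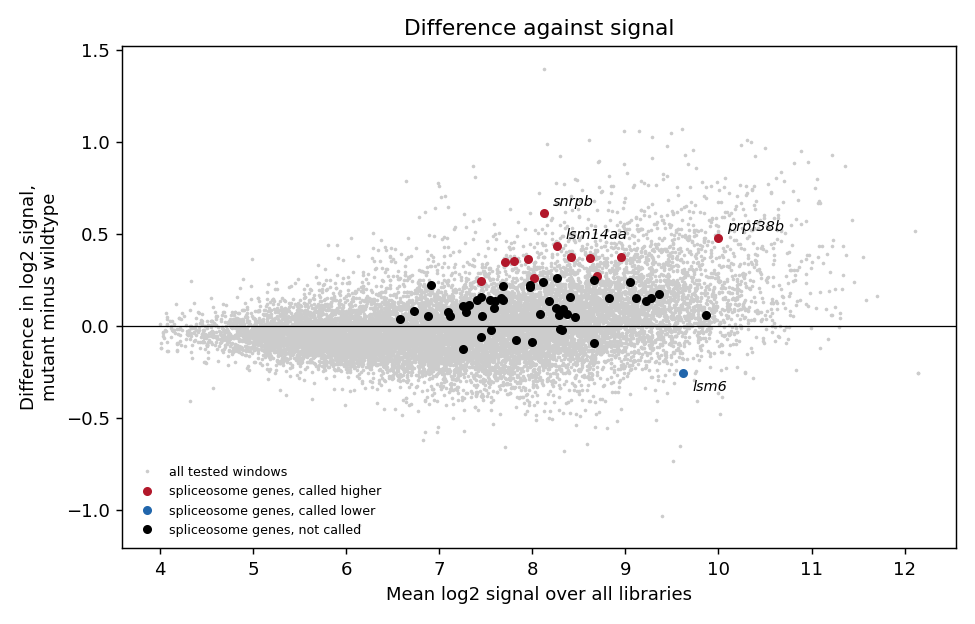
Difference in log2 signal, mutant minus wildtype (vertical axis), against mean log2 signal over all libraries (horizontal axis); grey points are all tested windows and large points the 59 members, red where called higher, blue where called lower and black where not called. The members lie between 6.58 and 9.99, most of them just above 0, with snrpb farthest up and lsm6 farthest down.

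The replicate numbers tie the groups together, and the comparison of 3 against 3 did not use them. Replicates of the same number tended to deviate from their group means in the same direction, though not at every window. The correlations across all windows were 0.46, 0.51 and 0.53 for numbers 1, 2 and 3. With the number as a block, 21 members were called higher, where 14.0% of all windows were, and 1 lower, where 9.47% were. All 13 calls remained, and among those that joined them as higher were lsm14ab, prpf38a, prpf4bb, snrnp48, snrpd3l, u2af2a, u2af2b and u2surp. Taken one by one, the median difference over the members was 0.12 for mutant 1 minus wildtype 1, 0.14 for number 2 and 0.15 for number 3. The difference was positive at 44, 52 and 51 of the 59 members, against 47.5%, 48.7% and 47.0% of all windows. The mutant was above the wildtype in all 3 numbers at 38 members, and at 25.6% of all windows. It was below in all 3 at 2 members, prpf18 and lsm6, and at 4341 of all 15431 windows.

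**Figure D4:**
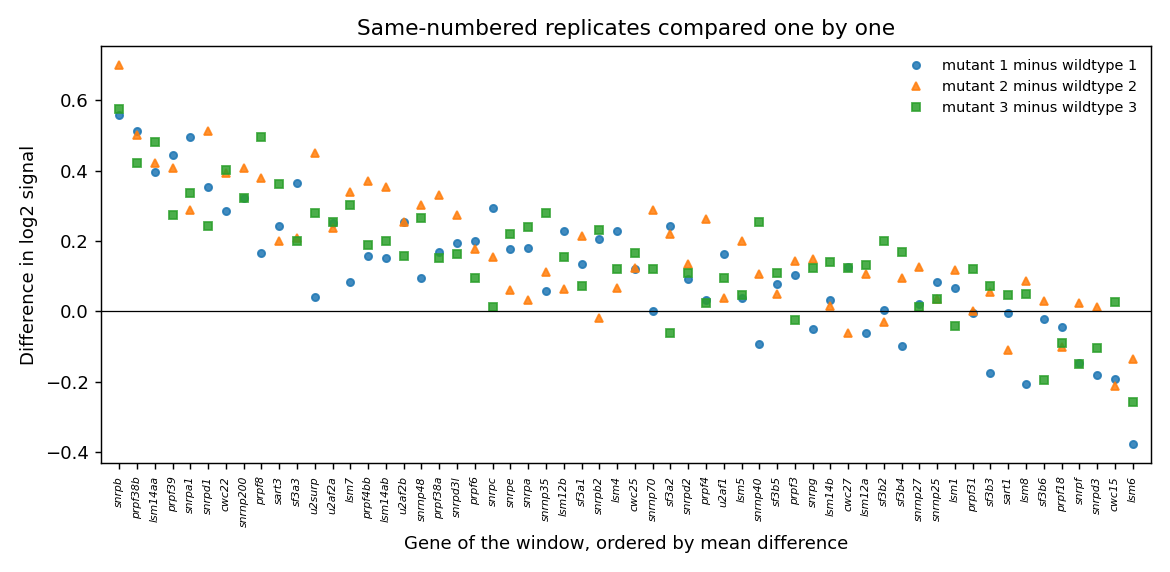
Difference in log2 signal between mutant and wildtype replicates of the same number (vertical axis) for the members' windows, all but 1 of the 59, ordered by mean difference; circles, triangles and squares are numbers 1, 2 and 3. All 3 symbols lie above 0 at most windows, and at prpf18 and lsm6, on the right, all 3 lie below.

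Treatment of the libraries changed how many members passed. With the libraries kept apart, 6 against 6, 20 members were called higher, where 11.9% of all windows were. After cyclic loess normalization 11 were, where 6.56% of all windows were. Regressed on the mean of all replicates over all windows, the mutant replicates had slopes of 0.994, 1.04 and 1.04, against 0.951, 0.988 and 0.988 in the wildtype siblings. Every mutant slope lay above every wildtype slope, so slope and genotype are partly confounded, and a fit with the slope cannot separate them. With that slope as a covariate, an alternative chosen after seeing the data, 2 members, prpf38b and snrpd1, were still called higher (limma adjusted p = 0.0452 and 0.0171), where 2.20% of all windows were. The other 11 calls kept their sign and had adjusted p of 0.0574 to 0.639. Their differences were then 0.62 at snrpb, 0.47 at cwc22, 0.41 at snrpa1, 0.37 at prpf39, 0.23 at sf3a3, 0.22 at sart3 and -0.20 at lsm6. They were over 1.5 times smaller than without the covariate at lsm14aa (0.28), snrnp200 (0.20), lsm7 (0.16) and prpf8 (0.13), while snrpd1 came to 0.56. The median SE over all windows was then 0.111, against 0.0798 without the covariate. The authors' deposited table gives an adjusted p under 0.05 for 21 members, of which 20 were higher in the mutant library columns, as 12.1% of all windows were. These 21 include all 13 called here.

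The windows of 16 members overlap the window of another gene, 15 of them through a neighbour read in the opposite direction, with 9 such neighbours within 1000 bp. Over all tested windows 8.02% were called higher and 3.58% lower. Of the 43 members with a window of their own, 10 rose and 1 fell. Of the 16 with a shared window 2 rose, snrpd1 and lsm7, and in both cases the neighbour named above was called as well. snrnp40 and snrnp25 share theirs with zcchc17 and polr3k (108 and 211 bp between centres), at differences of 0.09 and 0.05 that the neighbours match (0.09 and 0.06). The members lie on 23 chromosomes.

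The wider splicing machinery was examined through 112 genes that the name rule does not take, of which 94 were tested. By limma 21 of them rose and 0 fell, where 8.02% of all tested windows were called higher and 3.58% lower. At an unadjusted limma p under 0.05, 40 were higher and 0 lower. The share of all windows at that p was not computed, so these counts cannot be set against it. The median difference was 0.15, against -0.02 over all tested windows. The lowest, cd2bp2 of the U5 particle, lay at -0.16 (unadjusted p = 0.0609). After cyclic loess with the replicate block 3 were called lower, acin1b, cd2bp2 and zmat5, where 1481 of all 15431 windows were. The largest rise was at hspa8, a chaperone found with the Prp19 complex, whose many other tasks lie outside splicing. Its window (chromosome 10, 29961158 to 29965158) stood at 10.51, 10.44 and 10.48 in the mutants, against 9.73, 9.72 and 9.81 in the wildtype siblings, a rise of 1.65-fold (0.72 ± 0.07, SE, limma adjusted p = 7.4e-06). ddx5, a helicase that acts with U1, rose 1.55-fold (0.63 ± 0.08, adjusted p = 7.08e-05). snu13b, which binds U4 RNA, rose by 0.58 ± 0.08 (adjusted p = 0.000132). tfip11, which helps take the spliceosome apart, rose by 0.46 and luc7l3, a U1-associated protein, by 0.44. Both of these calls were lost with the replicate slope as a covariate, at 0.21 and 0.25 (adjusted p = 0.385 and 0.236).

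By class, 4 of 6 U1-associated genes rose with a median of 0.41, and 4 of 9 exon junction genes with a median of 0.29. The median signals of these 2 classes were 9.09 and 8.50, in ranges where 24.0% and 12.4% of all windows were called higher. The other classes had median signals of 7.64 to 8.49, where 3.93% (7 to 8) or 12.4% (8 to 9) were. In the Prp19 group 4 of 18 rose (median 0.20), around the branch site 3 of 14 (0.13), and in the catalytic steps 2 of 10 (0.12). Of 16 further genes listed under the tri-snRNP 3 rose (0.06), and tfip11, listed there, is 1 of these. Of 14 genes that assemble snRNPs, such as smn1 and the gemins, 1 rose (0.09). None of 7 further minor spliceosome genes passed (0.07).

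Of 26 markers of embryonic tissues 25 were tested, and none was at 0. Among these 25 for nerve, muscle, red cells, vessels, skin, heart, gut and yolk, the neural sox2 rose (0.78). The neural neurod1 and gfap and the endothelial cdh5 fell (-0.41, -0.39 and -0.31), and 21 did not pass. Of all tested windows 8.02% were called higher and 3.58% lower. The mean level over the list was 7.20 to 7.32 in the mutant replicates and 7.24 to 7.30 in the wildtype replicates. By tissue, the 3 endothelial markers averaged 7.100 to 7.247 in the mutant replicates and 7.254 to 7.435 in the wildtype replicates. The 3 yolk syncytial markers averaged 6.18 to 6.23 in the mutants and 6.26 to 6.33 in the wildtype siblings. Both averages lay lower in the mutants with no overlap, as did 14.0% of all single windows. The endothelial differences were -0.31 at cdh5, -0.14 at fli1a and -0.02 at kdrl. Those of the yolk markers were -0.10 to -0.08, none called. The median over all windows was -0.05 at a signal of 4 to 6 and -0.06 at 6 to 7. The 4 muscle markers averaged 7.52 to 8.03 in the mutants and 7.45 to 7.61 in the wildtype siblings, and the 4 neural markers 9.28 to 9.48 in the mutants and 9.31 to 9.39 in the wildtype siblings, with overlap. The heart, erythroid, skin and endoderm markers overlapped as well. The part of cell makeup in the members' differences was not tested.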

How the data were processed

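ATAC-seq libraries were sequenced on an Illumina HiSeq4000, per the labels' protocols. The submitters' processing notes list CASAVA 1.8, FastQC 0.11.2, HOMER 4.9 and the build GRCz10 (danRer10). Aligner, read filters, duplicate removal and Tn5 shift: not given in the sources used here. The deposited library columns hold normalized log2 values, with a transformation that the authors do not name. The authors' p-values and log2 fold changes are in the same deposited table, per the file headers. No counts were given, so depth is unknown and no interval rests on it.

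Of 16555 entries, repeats of the same window were averaged, leaving 15674 windows, and those with a mean of at least 4 were tested (15431). Technical repeats were averaged and groups compared 3 against 3 with limma 3.58.1 in R 4.3.3 (trend and robust options). A run on simulated data had independent replicates, without the pairing or slope differences of these data, so it says nothing about either. Columns name groups and replicate numbers, not sample titles. Nothing in the labels ties a replicate to a separate clutch, so p-values measure the spread between these samples. All 3 same-number correlations exceed 0.1, the limit used here, as given in the report, so the replicate numbers were taken to pair the samples. The main comparison of 3 against 3 left this pairing out, and the fit with the replicate block used it. Copies were compared over all a and b name pairs of the table. Alternatives were the replicate block, 6 against 6, other normalizations and filters, and leaving out replicates; the slope covariate, cyclic loess with the block and the overlap split were added after the data were seen. The members, roles and gene lists were chosen with earlier results of these data known. The rule for named genes took, among called members, up to 8 higher and 6 lower (1 was lower), the 3 most and 3 least open, all Sm genes, the extremes of each role, name pairs, and of the called other splicing genes up to 5 higher and 3 lower (0 were lower). Other genes were named after their values were seen. 1 member is in all counts and medians, and its own values are not reported here. Figures used matplotlib 3.10.9.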

Additional observations from a re-analysis of the deposited data

How the results depend on the processing

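The 12 members called higher became 21 with the replicate block, 20 with the 12 libraries kept apart, 20 with cyclic loess and the block, and 2 with the replicates' slope as covariate. Over all 15431 windows, the 1238 called higher became 2160, 1830, 1733 and 340 in these fits. Leaving out 1 replicate gave 7 (without wildtype replicate 2) to 14 (without mutant replicate 1), where 883 and 1587 of all windows were called higher. The 1 call lower became 0 with medians set equal and with the slope covariate, where 375 and 102 of all windows were called lower. Without 1 replicate it became 0 to 1, where 248 to 636 of all windows were. The 21 other splicing genes called higher became 40 with the block, 34 with libraries apart and 4 with the slope covariate. They became 10 to 24 without 1 replicate. They were 10 both without mutant replicate 3 and without wildtype replicate 1, where 836 and 780 of all windows were called higher. With cyclic loess and the block 3 other splicing genes were called lower, as were 1481 of all windows. The block ended no call among the members. Over all windows 1238 were called higher and 552 lower, against 973 and 771 after quantile normalization, 1012 and 705 after cyclic loess, and 1593 and 375 with medians set equal.

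Signs turned at members that were not called. With the slope covariate the values were snrpa -0.012, snrnp70 -0.078, lsm5 -0.021, snrnp40 -0.19, lsm14b -0.015, cwc27 -0.12, lsm12a -0.10, sf3b2 -0.048, sf3b4 -0.0044, lsm1 -0.21, prpf31 -0.019, sart1 0.0069 and sf3b6 0.16. lsm12a also turned to -0.13 (quantile) and -0.12 (cyclic loess, with or without the block), lsm1 to -0.0044 (quantile) and sart1 to 0.0010 (cyclic loess, both ways). With medians set equal sf3b3, sart1 and lsm8 lay at 0.0145, 0.0071 and 0.0065. Without 1 replicate the ranges that crossed 0 were lsm5 -0.036 to 0.17, snrnp40 -0.0062 to 0.21, cwc27 -0.0058 to 0.10, snrnp27 -0.0088 to 0.10, lsm1 -0.031 to 0.14, sf3b3 -0.11 to 0.038, sart1 -0.076 to 0.027, lsm8 -0.073 to 0.059 and sf3b6 -0.13 to 0.033. The cause was not tested. Every member has 1 window, so the choice of window gave no other value. The depth is unknown, and 3 replicates per group limit what can pass.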
